A study of Homo sapiens with 8 samples.

Results

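Ribosomes recovered through the chaperonin TRiC were set directly against ribosomes recovered through its partner prefoldin (PFD). The comparison used the 4 pulldown libraries among the 8 libraries of the series, selected by their sample labels, and the 4 libraries of total ribosomes (inputs) stayed out of the fit. The TRiC pulldown came from U-2 OS cells with the genotype CCT4-Halo and the PFD pulldown from U-2 OS cells with the genotype PFDN4-Halo, with 2 biological replicates each. U-2 OS is an established human osteosarcoma line. According to the methods, both tagged lines are single clones made by CRISPR knock-in, with the HaloTag placed in a loop of the TRiC subunit CCT4 or at the C terminus of the prefoldin subunit PFD4. All cells received 100 µg/ml cycloheximide for 1 min and the crosslinker DSP at 2 mM for 30 min before RNase I digestion and recovery on anti-HaloTag beads. Each pulldown therefore differs from the other in its bait and in its clone, and these cannot be told apart. The input libraries of both lines serve below as a measure of how far the lines differ without a pulldown. That measure is not of the clones alone. The methods do not say which sequencer each library was run on. Any difference between the lines in preparation or sequencing is part of it and cannot be told apart from the clone.

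TRiC is a double-ring chaperonin that encloses a folding protein in its cavity and is required for the folding of actins, tubulins and many WD40 propeller proteins. PFD is a jellyfish-shaped hexamer that holds unfolded chains between its tentacles and passes them to TRiC. Both reach nascent chains while translation goes on, so the mRNA fragments protected by ribosomes in a pulldown (ribosome-protected fragments, RPFs) report which proteins were being made within reach of the chaperone. A gene's value here is its share of all RPFs in a library. Fewer ribosomes on an mRNA, fewer copies of the mRNA and less frequent chaperone contact all lower that share and cannot be told apart in a single pulldown.

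The TRiC pulldowns held 32637658 and 24949407 counts and the PFD pulldowns 9523128 and 28582306. Genes with at least 1 count numbered 27679 and 26298 in the TRiC pulldowns but 15672 and 18907 in the PFD pulldowns, and the inputs of the lines differed in the same way, with 27455 and 26634 against 18682 and 16257. Between TRiC replicates the median absolute gap was 0.13 log2 units over 11376 genes with a mean of at least 100 counts, and between PFD replicates it was 0.43. The dispersion that edgeR estimated was 0.018 from the TRiC replicates alone and 0.76 from the PFD replicates alone. Of 10 genes taken as markers of U-2 OS cells 9 were tested, none was higher with TRiC and 2, CD44 and COL1A1, were higher with PFD (median 0.01). Between the inputs 4 were higher in the TRiC and 3 in the PFD line (median 0.42). COL1A2 was low in all pulldowns, with 66 and 27 counts with TRiC and 1 and 2 with PFD. VIM, an intermediate filament of mesenchymal cells, stood at 1502 and 1486 TMM-scaled CPM with TRiC and at 1461 and 1770 CPM with PFD, and the matrix protein SPARC at 2483 and 2362 against 2194 and 2617 CPM. Both groups overlapped for these genes. CD44, a hyaluronan receptor, was higher in the PFD pulldown at 808 and 957 CPM against 134 and 123 CPM. The tagged genes themselves differed between the lines. CCT4 was lower in the CCT4-Halo line, at 301 and 311 against 825 and 879 CPM (log2 difference -1.48 ± 0.10 SE, adjusted p = 0.0072 by edgeR), and the inputs differed by -1.40. PFDN4 was lower in the PFDN4-Halo line, at 12.3 and 11.3 against 36.8 and 35.7 CPM (1.62 ± 0.25, adjusted p = 0.028), and the inputs differed by 1.97.

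In all 17071 genes were tested, and 2453 (14.4%) had a larger share with TRiC and 1540 (9.02%) a larger share with PFD at an adjusted p under 0.05 by edgeR's quasi-likelihood test. Log2 differences are TRiC pulldown minus PFD pulldown throughout, so negative values mean a larger share of the PFD-bound ribosomes. The SE given after ± is the size of the log2 difference divided by the square root of edgeR's F statistic. It rests on a dispersion that edgeR moderates across genes and does not measure the gap between the replicates of a gene. The median over all genes tested was 0.16, and 55.6% lay above 0. Of the calls higher in the TRiC pulldown, 1332 (54.3%) had 0 counts in both PFD pulldowns. Of those higher in the PFD pulldown, 12 had 0 counts in both TRiC pulldowns. Among the 11376 genes with a mean of at least 100 counts the balance turned, with 940 genes higher with TRiC and 1513 with PFD. Cyclic loess scaling tested by limma-trend, a change of scaling and of test together, turned it as well, with 1018 genes higher with TRiC and 1240 with PFD, so that 45.1% of calls were on the TRiC side in place of 61.4%. The counts depended on which library carried the estimate of the spread. Without TRiC replicate 1 there were 444 and 765 calls, without TRiC replicate 2 there were 427 and 701, without PFD replicate 1 there were 6708 and 4924, and without PFD replicate 2 there were 7093 and 4621 (TRiC side first).

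Most of the difference between the pulldowns was also present between the inputs. Between the inputs 22.6% of the genes tested were higher in the TRiC line and 17.7% higher in the PFD line. Of the 3423 genes called between the pulldowns that could be tested between the inputs, 2438 (71.2%) were called in the same direction there and 17 in the opposite one. The share was 59.7% for genes higher in the TRiC pulldown and 85.5% for genes higher in the PFD pulldown. Across 11372 genes with a mean of at least 100 counts the pulldown and input differences followed each other with a Pearson's r of 0.70 and a Spearman's rho of 0.75, given as a description because genes are not independent and the libraries of a line share a clone. A test of the pulldown difference against the input difference in all 8 libraries called 4 genes shifted towards the TRiC and 3 towards the PFD pulldown among 18855 (edgeR), with 2791 at an unadjusted p under 0.05. DESeq2 called 481 and 536 genes in that test. Without either PFD input edgeR called none, without PFD pulldown replicate 1 it called 649 and 596, without PFD pulldown replicate 2 it called 2489 and 1442, without TRiC pulldown replicate 1 it called 1 and 1, without TRiC pulldown replicate 2 it called 2 and 1, and without TRiC input replicate 2 the count towards TRiC was 2.

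**Figure D1:**
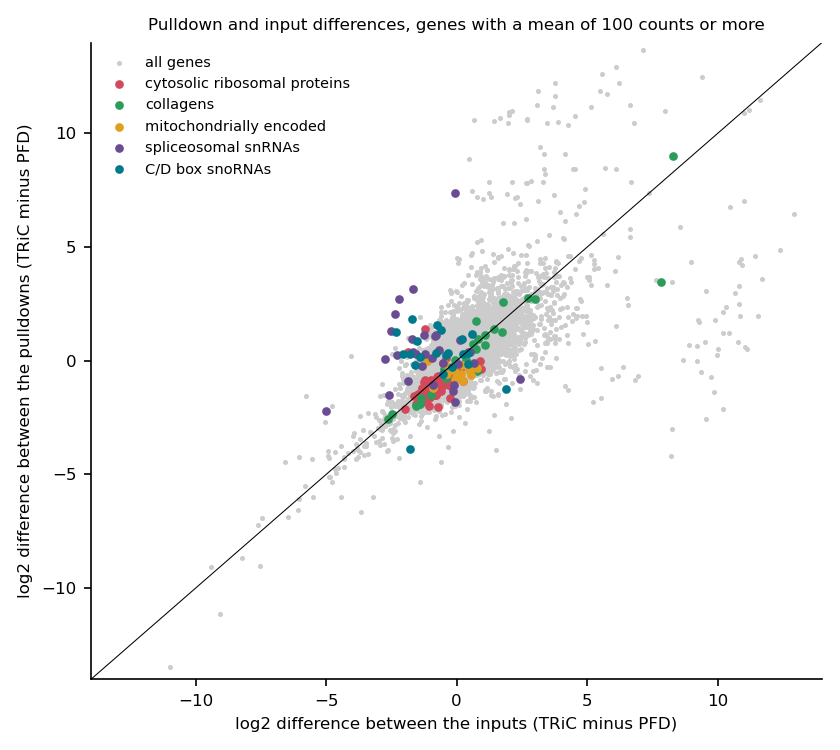
Log2 difference between the pulldowns (vertical) against the log2 difference between the inputs (horizontal), TRiC minus PFD, for 11372 genes with a mean of at least 100 counts over the pulldowns. The black line marks equal differences. Most cytosolic ribosomal protein genes lie below the line, and most spliceosomal snRNAs and C/D box snoRNAs lie above it.

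Ribosomal protein genes took a larger share of the PFD-bound ribosomes. Of 83 tested cytosolic ribosomal protein genes, 61 were higher in the PFD pulldown, 1 higher with TRiC, and 78 lay below 0. Their median log2 difference was -1.07, and it stayed between -1.17 and -0.94 in the alternatives tried. Over all genes tested the median was 0.16. It was -0.11 among genes with a mean of 1000 to 10000 counts and -0.25 among those over 10000. RPS19, a small-subunit protein, had 297 and 272 CPM with TRiC and 1141 and 961 CPM with PFD. Both PFD libraries lay above both TRiC libraries, and the log2 difference was -1.88 ± 0.13 (SE, adjusted p = 0.0072, edgeR). RPL8, a large-subunit protein, had 802 and 664 against 1812 and 1722 CPM (-1.27, adjusted p = 0.013). The largest differences to the PFD side were those of RPL9 (-2.12), RPL35 (-2.04) and RPS16 (-1.99). The exception was RPS10, with 64 and 50 counts with TRiC and 0 and 1 with PFD. Its pooled ratio was 71.5 with an exact 95% interval of 12.6 to 2847 that covers counting error only, while its input difference was -1.04. A readthrough gene, RPS10-NUDT3, overlaps RPS10, so its count is uncertain. In the inputs 62 of the 83 genes were higher in the PFD line, with a median of -0.79. The median of the pulldown difference minus the input difference was -0.35, and over the alternatives it lay between -0.42 and -0.24. Without either TRiC library 48 or 47 of the genes were called higher in the PFD pulldown.

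Other parts of the translation machinery leaned the same way in their medians. For comparison 9.02% of all genes tested were higher with PFD. That share was 22.7% among genes with a mean of 1000 to 10000 counts (median -0.11) and 37.8% among those over 10000 (median -0.25). Of 66 tested translation factors 23 were higher in the PFD and 3 in the TRiC pulldown, with a median of -0.60 between the pulldowns and -0.50 between the inputs. EEF2, which moves the ribosome along the mRNA after each peptide bond, had 1938 and 1663 CPM against 4850 and 4818 CPM (-1.42 ± 0.13, adjusted p = 0.0097, edgeR). EIF3A, the scaffold of initiation factor 3, had 474 and 456 against 856 and 995 CPM (-0.99, adjusted p = 0.015). EEF1B2, an exchange factor of elongation factor 1, was among the largest differences at -1.50. Among 40 aminoacyl-tRNA synthetase genes 13 were higher in the PFD and 1 in the TRiC pulldown (median -0.41, inputs -0.18). Under cyclic loess scaling with limma-trend the synthetase counts were 5 and 3. KARS1, which charges lysine tRNA, differed by -1.47. Of 46 proteasome genes 18 were higher in the PFD pulldown and 1, PSMA7, in the TRiC pulldown (median -0.43, inputs -0.35). PSMD2, a large base subunit of the regulatory particle, had 543 and 515 against 932 and 905 CPM (-0.80, adjusted p = 0.016). Mitochondrial ribosomal protein genes, which are translated in the cytosol, counted 19 of 76 on the PFD side and 1 on the TRiC side (median -0.34, inputs -0.24), a PFD-side share close to the 22.7% among all genes with a mean of 1000 to 10000 counts. These medians kept their sign in every alternative tried. Without a TRiC library the PFD-side counts were lower, at 20 or 18 translation factors, 4 synthetases, 10 proteasome genes and 4 mitochondrial ribosomal protein genes.

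**Figure D2:**
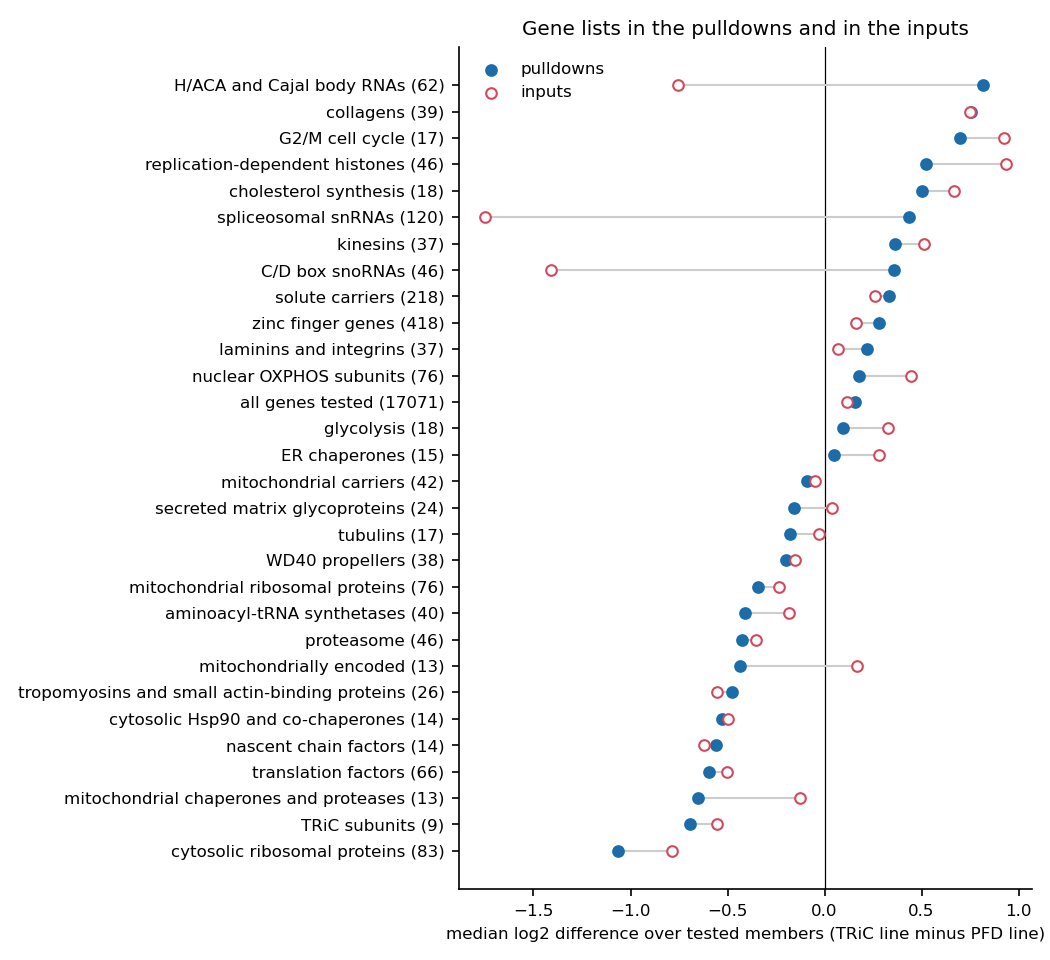
Median log2 difference (TRiC line minus PFD line) of the tested members of 29 gene lists and of all genes tested, between the pulldowns (filled circles) and between the inputs (open circles), with the number of tested members in brackets. Among the lists plotted, cytosolic ribosomal proteins lie lowest at -1.07. Pulldown and input medians lie close together for most lists plotted and far apart for small noncoding RNAs, mitochondrially encoded genes and mitochondrial chaperones. Not all lists are plotted. Among those left out, the medians were also far apart for actins (-1.22 and -0.11) and for intermediate filaments and lamins (0.0009 and 0.81).

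TRiC subunit genes took larger shares of the PFD-bound ribosomes. Of the 9 tested TRiC subunit genes 7 were higher in the PFD pulldown and none in the TRiC pulldown. Over all genes tested the shares were 9.02% with PFD and 14.4% with TRiC. They were 22.7% and 11.9% among genes with a mean of 1000 to 10000 counts, and 37.8% and 15.4% over 10000. The list median was -0.69 between the pulldowns and -0.56 between the inputs, where 8 were higher in the PFD line. Without either TRiC library 6 were called. Leaving out CCT4, which carries the tag in the TRiC line, the called subunits were CCT6A (-0.85), TCP1 (-0.81), CCT7 (-0.78), CCT2 (-0.69), CCT8 (-0.62) and CCT3 (-0.61). CCT5 had 850 and 797 against 1011 and 1204 CPM and missed the threshold (-0.43, adjusted p = 0.076). CCT6B, a subunit best known from testis, had 43 and 57 counts with TRiC and 0 and 7 with PFD (adjusted p = 0.18). Prefoldin subunits went either way. Beside PFDN4, PFDN2 was called, with 43.9 and 44.9 against 139 and 157 CPM (-1.74 ± 0.13, adjusted p = 0.0076), and the other 4 subunits were not called.

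Cytosolic Hsp70 and Hsp90 chaperones bind chains before or after TRiC. Of 8 tested Hsp70 and Hsp110 genes 2, HSPA8 and HSPH1, were higher in the PFD pulldown and 1, HSPA4L, which had 0 counts in both PFD pulldowns, with TRiC (median -0.45, inputs -0.11). These shares are near the 22.7% and 11.9% among all genes with a mean of 1000 to 10000 counts. Over all genes tested the shares were 9.02% and 14.4%, for comparison with the lists below. The TRiC-side count was 0 under cyclic loess scaling with limma-trend and with the replicate block. HSPA8, the constitutive Hsp70, had 388 and 406 CPM against 1041 and 1147 CPM (-1.46 ± 0.10, adjusted p = 0.0073, edgeR). HSP90AB1, the constitutive Hsp90, had 1900 and 1832 against 4347 and 4649 CPM (-1.27 ± 0.11, adjusted p = 0.0095). HSP90AA1, its stress-inducible relative, had 530 and 531 against 481 and 376 CPM and was not called (0.31, adjusted p = 0.21). The kinase co-chaperone CDC37 differed by -1.31 and the Hsp110 exchange factor HSPH1 by -0.76. In all 5 of 14 Hsp90 system genes were higher in the PFD and none in the TRiC pulldown (median -0.53, inputs -0.50), and 4 without either TRiC library. Of 14 factors that meet nascent chains at the ribosome exit, such as NAC, the signal recognition particle and N-terminal acetyltransferases, 7 were higher in the PFD and none in the TRiC pulldown (median -0.56, inputs -0.62). BTF3, the beta subunit of NAC, differed by -1.09, NACA, the alpha subunit, by -0.57, SRP68 by -1.10 and NAA15 by -1.11. Without TRiC replicate 1 or 2 the count was 3 or 4. Of 11 R2TP and prefoldin-like genes 4 were higher in the PFD pulldown, among them the prefoldin-like subunit URI1 (-1.05) and the helicase RUVBL1 (-0.81), and without either TRiC library 1 was called. Their list median was -0.38 but rose above 0 without either PFD library (0.02 and 0.04) and with no filter on low counts (0.07). Mitochondrial chaperones and proteases counted 5 of 13 on the PFD side (median -0.65) while their input median was -0.13, and 3 without either TRiC library. HSPD1, the mitochondrial chaperonin, differed by -0.81 between the pulldowns and by -0.79 between the inputs, whereas GRPEL1, the exchange factor of mitochondrial Hsp70, differed by -1.78 and -1.02.

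The cytoplasmic actins, obligate TRiC clients, took a larger share of the PFD-bound ribosomes. ACTB, cytoplasmic beta-actin, had 5242 and 4713 CPM with TRiC and 8509 and 8277 CPM with PFD (-0.75 ± 0.13 SE, adjusted p = 0.033, edgeR). ACTG1, cytoplasmic gamma-actin, had 1095 and 957 against 3365 and 3206 CPM (-1.68 ± 0.12, adjusted p = 0.0073). In both genes the groups were well apart, and the inputs differed by -0.51 and -1.05 in the same direction. The pulldown difference minus the input difference was -0.25 for ACTB and -0.63 for ACTG1, and neither passed that test. The other 4 tested actin genes were low and were not called. Over all genes tested 9.02% were higher with PFD, and 37.8% of those with a mean over 10000 counts. The median over the 6 genes was -1.22, with -0.11 between the inputs. Over the alternatives the actin median lay between -1.83 and -0.59. ACTG2, smooth muscle gamma-actin, had 68 and 62 counts in TRiC pulldowns and 72 and 246 in PFD pulldowns. Near-identical coding sequences of the actin and tubulin families leave reads that map to several genes, and these were discarded by the authors, so the values rest on the parts that differ.

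Tubulin genes had calls on both sides. Of 17 tested tubulin genes 5 were higher in the PFD pulldown and 3 in the TRiC pulldown, with a median of -0.18. Over all genes tested the shares were 9.02% with PFD and 14.4% with TRiC. Among genes with a mean of 1000 to 10000 counts they were 22.7% and 11.9%. TUBB, the main beta-tubulin of dividing cells, had 1390 and 1265 against 1793 and 1874 CPM (-0.47 ± 0.11, adjusted p = 0.042, edgeR). TUBB4B had 812 and 741 against 1101 and 1138 CPM (-0.53, adjusted p = 0.042) and TUBB6 had 450 and 403 against 706 and 679 CPM (-0.70, adjusted p = 0.026). Between the inputs TUBB4B differed by 0.03 and TUBB6 by -0.19. The alpha-tubulins TUBA4A (-3.18) and TUBA1C (-0.92) were also on the PFD side, while TUBA1B, with 147 and 125 against 151 and 156 CPM, was not called. On the TRiC side lay TUBB2B (1.95), delta-tubulin TUBD1 (1.78) and gamma-tubulin TUBG2. TUBG2 had 292 and 154 counts against 0 and 0, at least 34.6-fold higher when 3 counts per library are taken as the floor, and 10 and 7 counts in the PFD inputs. The list median lay between -0.41 and 0.43 over the alternatives, so tubulins as a class had no settled direction. Without TRiC replicate 1 or 2 the calls were 5 or 2 on the PFD side and 0 on the TRiC side.

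WD40 propeller proteins, the third large client family, had calls on both sides. Of 38 tested genes 10 were higher in the PFD and 3 in the TRiC pulldown (median -0.20, inputs -0.15), and the PFD-side share is close to the 22.7% among all genes with a mean of 1000 to 10000 counts, whose median was -0.11. Without TRiC replicate 1 or 2 these counts were 7 or 5 on the PFD side and 0 on the TRiC side. CORO1C, an actin-binding propeller, had 168 and 158 CPM against 588 and 590 CPM (-1.85 ± 0.10, adjusted p = 0.0072, edgeR), and the inputs differed by -1.79. RACK1, a propeller bound to the small ribosomal subunit, had 669 and 601 against 2198 and 2234 CPM (-1.80 ± 0.11, adjusted p = 0.0072) with -1.37 between the inputs. AAMP and EIF3B differed by -1.25 and -0.91. The 3 on the TRiC side were GNB5 (0.88), a G protein beta subunit, the mitotic activator CDC20 (0.46) and the coatomer subunit COPB2 (0.41), whose inputs differed by 0.78, 0.94 and 0.75. Of 20 other proteins known as TRiC clients 2 were higher in the TRiC pulldown, STAT3 (0.63) and the scaffold IQGAP1 (0.44), and 3 in the PFD pulldown, among them non-muscle myosin MYH9 (-0.74) and LAMP2 (-0.60). These counts are near the shares of 11.9% and 22.7% among all genes with a mean of 1000 to 10000 counts. Without either TRiC library 1 was called on the PFD side and none on the TRiC side. Both TRiC-side clients differed more between the inputs, by 1.03 for STAT3 and 0.54 for IQGAP1.

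Small actin-binding proteins and motor proteins went different ways. Over all genes tested the shares were 9.02% with PFD and 14.4% with TRiC, and 22.7% and 11.9% at a mean of 1000 to 10000 counts. Of 26 tropomyosins and other small actin-binding genes 11 were higher in the PFD and 2 in the TRiC pulldown (median -0.48, inputs -0.56), with 7 or 6 on the PFD side without TRiC replicate 1 or 2. TAGLN, an actin-bundling protein of contractile cells, had 163 and 149 against 658 and 560 CPM (-1.96, adjusted p = 0.0072, edgeR), and CAPZB, a capping protein, differed by -1.29. The 2 on the TRiC side were the monomer-binding thymosin TMSB4X, with 105 and 107 against 29.8 and 30.0 CPM (1.82, adjusted p = 0.0076), and TPM1, with 716 and 740 against 419 and 389 CPM (0.85, adjusted p = 0.015). Kinesin motor genes had no call on the PFD side in the main fit, although 10 lay below 0. DESeq2 called 2 kinesins there and the replicate block 1. Of 37 tested 7 were higher in the TRiC pulldown (median 0.36, inputs 0.51), a share near the 14.4% over all genes, and 4 without either TRiC library. Of the kinesins 32 had a mean of at least 100 counts (median 0.38). Among 11054 protein-coding genes with such a mean, 909 were higher with TRiC and 1498 with PFD (median -0.0005). KIF20A, a motor of cytokinesis, had 435 and 444 against 92.1 and 86.1 CPM (2.30 ± 0.10, adjusted p = 0.0072), KIF23 differed by 0.72 and KIF5B by 0.51. Lamin LMNB1 (1.00) and nestin (NES, 1.22) were on the TRiC side, and keratin KRT8 (-2.48) on the PFD side.

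Cell division genes leaned to TRiC-bound ribosomes in parallel with their inputs. The shares to set beside the counts below are 14.4% with TRiC and 9.02% with PFD over all genes tested. Among genes with a mean of 1000 to 10000 counts they were 11.9% and 22.7%. Of 17 G2/M genes 11 were higher with TRiC and none with PFD, with a median of 0.70 between the pulldowns and 0.92 between the inputs. TOP2A, which untangles DNA before mitosis, had 1540 and 1625 CPM against 647 and 796 CPM (1.13 ± 0.14, adjusted p = 0.017, edgeR). The mitotic kinase AURKA had 124 and 137 against 51.9 and 56.0 CPM (1.27, adjusted p = 0.012), and CENPF (1.11) and MKI67 (0.70) followed. Without either TRiC library 9 of the 17 were called. Replication-dependent histones counted 14 of 46 on the TRiC side and 2 on the PFD side (median 0.52, inputs 0.93), with 7 or 9 on the TRiC side without TRiC replicate 1 or 2. The H4 genes have near-identical coding sequences, so their counts are uncertain. H4C3 had 390 and 368 against 22.6 and 12.9 CPM (4.45 ± 0.31, adjusted p = 0.0072), and H4C16, another H4 gene, had 33.5 and 28.3 against 120 and 104 CPM (-1.86, adjusted p = 0.010). Cholesterol synthesis genes had 6 of 18 on the TRiC side and none on the PFD side (median 0.50, inputs 0.67), with 4 or 3 without TRiC replicate 1 or 2, led by lanosterol synthase LSS (2.31), the sterol sensor INSIG1 (1.77) and the transcription factor SREBF2 (1.29). Of 15 targets of the stress factor ATF4, 3 were higher with TRiC, the serine synthesis enzyme PHGDH (1.26), DDIT4 (3.06) and DDIT3, which had 66 and 30 against 0 and 0 counts, and 1, SLC3A2 (-1.08), with PFD (median 0.03). Of 18 glycolysis genes 2 were higher with TRiC, ENO2 (1.38) and ALDOC (2.60), and 2 with PFD, the hexokinase HK2 (-3.41) and the glucose transporter SLC2A1 (-1.33) (median 0.10). The shares of ATF4 targets and glycolysis genes called are near the 14.4% and 9.02% over all genes tested. All 18 glycolysis genes and 13 of the 15 ATF4 targets had a mean of at least 100 counts. Among 11054 protein-coding genes with such a mean, 909 were higher with TRiC and 1498 with PFD.

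Extracellular matrix and adhesion genes differed in both directions. For comparison 14.4% of all genes tested were higher with TRiC and 9.02% with PFD. Of 39 collagens 14 were higher with TRiC and 7 with PFD (median 0.76, inputs 0.75), and 6 or 7 on the TRiC side without TRiC replicate 1 or 2. Of the tested collagens 4 had 0 counts in both PFD pulldowns, and the collagen median lay between 0.10 and 1.31 over the alternatives. COL3A1, fibrillar collagen III, had 47847 and 32464 counts with TRiC and 5 and 102 with PFD (9.01 ± 0.63, adjusted p = 0.0072, edgeR). COL12A1 had 1393 and 1453 against 757 and 929 CPM (0.76, adjusted p = 0.037). The basement membrane collagens COL4A1 (-1.97) and COL4A2 (-1.89) and the microfibrillar COL6A3 (-2.55) were on the PFD side, as was the abundant COL1A1 (-0.78). Of 37 laminins and integrins 5 were higher with TRiC and 7 with PFD (median 0.22, inputs 0.07), a TRiC-side share and a median near the 14.4% and 0.16 over all genes tested. The laminin and integrin median lay between -0.22 and 0.58 over the alternatives, so its direction was not settled. LAMA5 had 1242 and 1181 against 172 and 170 CPM (2.82 ± 0.10, adjusted p = 0.0050), and LAMA4 differed by 4.53. LAMA3, a laminin chain of epithelial basement membranes, differed by -3.82 and the collagen receptor ITGA2 by -2.95. Secreted glycoproteins counted 9 of 24 on the PFD side and 3 on the TRiC side (median -0.16, inputs 0.04). Under cyclic loess scaling with limma-trend the counts were 9 and 6. Their median lay between -0.32 and 0.14 over the alternatives, so its direction was not settled. Fibronectin FN1 reached 11821 and 15246 CPM in the PFD pulldowns against 1938 and 1879 CPM (-2.83 ± 0.18, adjusted p = 0.0072), THBS1 differed by -2.94, whereas fibrillin FBN1 differed by 1.99. In these genes the inputs differed in the same direction, by 8.30 for COL3A1, 2.62 for LAMA5 and -2.85 for FN1.

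Of 15 endoplasmic reticulum chaperones 1 was higher with TRiC and 2 with PFD (median 0.05, inputs 0.28), against shares of 14.4% and 9.02% over all genes tested. The TRiC-side count was 6 under cyclic loess scaling with limma-trend, with none on the PFD side, 5 with DESeq2, and 4 with library totals, with no filter, with at least 10 counts in each library or with the replicate block. Without either TRiC library it was 0, and without PFD replicate 1 or 2 it was 4 or 6. HSPA5, the Hsp70 of the endoplasmic reticulum, had 1405 and 1428 against 1337 and 1626 CPM, and the groups overlapped. The protein disulfide isomerase P4HB (-0.72) and calnexin CANX (-0.71) were on the PFD side, and SDF2L1 (0.93) on the TRiC side. Of 218 solute carriers 32 were higher with TRiC and 21 with PFD (7 and 13 without TRiC replicate 1, 8 and 14 without TRiC replicate 2), which is close to the shares of 14.4% and 9.02% over all genes. Their median of 0.33 fell below 0 under cyclic loess scaling with limma-trend (-0.01) and among genes with at least 100 counts in each library (-0.10). SLC1A5, a glutamine transporter, differed by -2.01 and SLC3A2, a heavy chain of amino acid transporters, by -1.08. SLC12A8 had 400 and 230 counts against 0 and 0, at least 49.2-fold higher at a floor of 3 counts per library, and 30 and 31 counts in the PFD inputs.

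Genes of the respiratory chain are encoded in the nucleus and in the mitochondrial genome. Of 76 nuclear-encoded subunits 10 were higher in the TRiC and 1, SDHB (-0.68), in the PFD pulldown, with a median of 0.18 between the pulldowns and 0.44 between the inputs. The TRiC-side share and the median were close to the 14.4% and 0.16 over all genes tested, which include many low genes. Of the 76 subunits 72 had a mean of at least 100 counts, again with a median of 0.18. Among 11054 protein-coding genes with such a mean, 909 were higher with TRiC and 1498 with PFD. Their median was -0.0005. The complex I subunits NDUFA2 (1.77) and NDUFB1 (1.76) were the largest of the 10 genes called on the TRiC side. Without TRiC replicate 1 or 2 the TRiC-side count was 1 or 3. All 13 mitochondrially encoded genes, which mitochondrial ribosomes translate inside the organelle, lay below 0 (median -0.44), and none was called by edgeR, while 2 were below 0 at an unadjusted p under 0.05. The PFD-side count was 3 with DESeq2, 4 with the replicate number as a block, 4 with no filter on low counts, 2 in the fit of all 8 libraries and 1 with voom. Between the inputs their median was 0.17 with 5 genes higher in the TRiC line and 3 in the PFD line. MT-CYB, cytochrome b, had 102 and 145 CPM with TRiC and 235 and 144 CPM with PFD, and the groups overlapped. Its inputs stood at 1191 and 1267 CPM in the TRiC line and 870 and 817 CPM in the PFD line. PFD replicate 1 was the higher PFD library for MT-ND5, MT-CYB and MT-CO3, and without it MT-ND5 and MT-CO3 differed by 0.06 and 0.26. The median of the pulldown difference minus the input difference was -0.75, between -0.97 and -0.29 over the alternatives. Its SD over pairs of libraries was 0.39. In the comparison of the pulldowns alone, 4 or 11 of the 13 genes were called higher with PFD when PFD replicate 1 or 2 was left out, with 1 on the TRiC side without PFD replicate 1, and leaving out TRiC replicate 1 or 2 gave 0 or 2.

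Coding length separated the pulldowns more than the inputs. Among 11054 protein-coding genes with a mean of at least 100 counts, the median log2 difference was -0.17 in the shortest of 5 classes of about equal size (75 to 818 nt), then -0.12, -0.03 and 0.05, and 0.23 in the longest class (from 2730 nt). The corresponding input medians were -0.01, -0.03, 0.01, 0.01 and 0.07. Genes higher in the TRiC pulldown made up 5.02% of the shortest and 16% of the longest class, and genes higher in the PFD pulldown 16.1% and 10.3%. The longest minus the shortest class came to 0.39, and it was 0.35, 0.46, 0.35 and 0.43 in the 4 pairs of a TRiC and a PFD library. Over the alternatives it lay between 0.34 and 0.46. The trend was present in each of 5 classes of GC content of the coding sequence, where the longest class exceeded the shortest in median pulldown difference. In the class lowest in GC the medians were 0.27 and -0.17, and in the class highest in GC they were 0.29 and 0.01. The input medians of the longest and shortest class were -0.06 and -0.26 in the lowest GC class and 0.03 and -0.12 in the next. They were 0.08 and -0.005 in the middle class, 0.22 and 0.08 in the one above it, and 0.28 and 0.25 in the highest. Within each GC class the inputs thus also rose with length, by less than the pulldowns. GC content itself moved with the inputs, whose median rose from -0.13 in the lowest to 0.22 in the highest class, while the pulldown medians of these classes were 0.07 and 0.03. The part of GC content in the length trend was not tested beyond these classes.

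Among genes with a mean over 10000 counts 15.4% were higher with TRiC and 37.8% with PFD. The median difference of protein-coding genes with a mean of at least 100 counts was highest on chromosomes 21 (0.42), 18 (0.42), 14 (0.33), 15 (0.32) and 20 (0.23), against -0.10 on chromosome 1. The inputs gave 0.14, 0.36, 0.36, 0.34, 0.40 and -0.08. Chromosome 19 had -0.10 between the pulldowns and 0.13 between the inputs.

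Small noncoding RNAs had medians below 0 between the inputs and above 0 between the pulldowns, although the pulldown medians of snRNAs and C/D box snoRNAs were not above 0 under every setting. These RNAs work in the nucleus and are not translated, and the authors discarded reads that matched non-coding RNA before mapping, so the values are what remained in the gene counts. C/D box snoRNAs guide methylation of ribosomal RNA, H/ACA snoRNAs guide pseudouridylation, and spliceosomal snRNAs form the core of the splicing machinery. The sequences of 3 of them, taken from GENCODE release 44 on hg38 with U written as T, are shown as examples of a called and of uncalled members. Capitals mark the C box (TGATGA) and the last D box (CTGA) of the C/D box RNAs and the last ACA of the H/ACA RNA.
SNORD104: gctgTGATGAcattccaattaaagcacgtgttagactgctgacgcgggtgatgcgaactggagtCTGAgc
SNORD14E: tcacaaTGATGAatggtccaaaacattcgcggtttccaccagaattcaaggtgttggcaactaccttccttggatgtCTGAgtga
SNORA65: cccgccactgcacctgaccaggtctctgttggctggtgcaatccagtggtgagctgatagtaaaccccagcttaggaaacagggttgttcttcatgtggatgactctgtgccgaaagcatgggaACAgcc

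SNORD104 lies in an intron of SNHG25 (chr17:64146083-64146152, plus strand), SNORD14E in an intron of HSPA8 (chr11:123058077-123058161, minus strand) and SNORA65 in an intron of RPL12 (chr9:127448501-127448630, minus strand). SNORD104 had 1665 and 1647 CPM with TRiC and 775 and 707 CPM with PFD (1.16 ± 0.10 SE, adjusted p = 0.0096, edgeR), and the inputs differed by 0.60. SNORD14E had 262 and 291 against 331 and 328 CPM and was not called (-0.25, adjusted p = 0.16), although its host HSPA8 differed by -1.46. SNORA65 had 158 and 189 against 208 and 185 CPM between the pulldowns and was not called (-0.18), while its inputs differed by -1.99. RNU5A-1, a gene of the U5 snRNA, had 41.2 and 34.3 against 181 and 167 CPM (-2.20 ± 0.15, adjusted p = 0.0072), and the inputs differed by -4.99. The difference of RNU5A-1 was smaller in size between the pulldowns than between the inputs by 2.80 log2 units (adjusted p = 0.017 in the fit of all 8 libraries). MALAT1, a long nuclear RNA, had 74.6 and 64.1 against 28.0 and 18.2 CPM (1.60 ± 0.27, adjusted p = 0.034), with -1.02 between the inputs, and exons annotated on the other strand cover 83.7% of its exon sequence. NEAT1, the scaffold RNA of paraspeckles, had 581 and 484 counts against 3 and 47 (4.08, adjusted p = 0.042).

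As classes, 11 of 46 C/D box snoRNAs were higher with TRiC and none with PFD, 11 of 62 H/ACA and Cajal body RNAs were higher with TRiC and 1 with PFD, and 16 of 120 spliceosomal snRNAs and their copies were higher with TRiC and 1 with PFD. For snRNAs and for H/ACA and Cajal body RNAs the TRiC-side share is near the 14.4% over all genes tested. In all 7 C/D box, 5 H/ACA and 11 snRNA genes among those tested had 0 counts in both PFD pulldowns. With at least 10 counts in each library the C/D box calls were 3 on the TRiC and 2 on the PFD side of 21, with the replicate block 4 and 2, with DESeq2 14 and 3, and under cyclic loess scaling with limma-trend 2 and 0. Their median differences were 0.36, 0.82 and 0.44 between the pulldowns. Between the inputs, where 41, 47 and 98 of these genes could be tested, the medians were -1.41, -0.76 and -1.75. Under cyclic loess scaling with limma-trend the snRNA median was -0.71, and with at least 10 counts in each library it was -0.08, so the direction between the pulldowns alone is not settled for snRNAs, and the same setting put the C/D box median at -0.0042. Without TRiC replicate 1 or 2 the TRiC-side counts fell to 2 or 2 C/D box, 4 or 0 H/ACA and 1 or 1 snRNA genes. The median of the pulldown difference minus the input difference was 2.00 for C/D box snoRNAs, 1.43 for H/ACA and Cajal body RNAs and 2.35 for snRNAs. It stayed above 0 in every alternative tried, with lowest values of 0.73, 1.27 and 1.35. SNORA73B, an H/ACA RNA needed for ribosomal RNA cleavage, was the member on the PFD side (-0.91, adjusted p = 0.026), and SNORA15, with 460 and 381 counts against 0 and 1, was the largest on the TRiC side. The share of all counts on snoRNA genes was 0.356% and 0.365% with TRiC, 0.241% and 0.210% with PFD, and between 0.151% and 0.192% in the inputs.

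**Figure D3:**
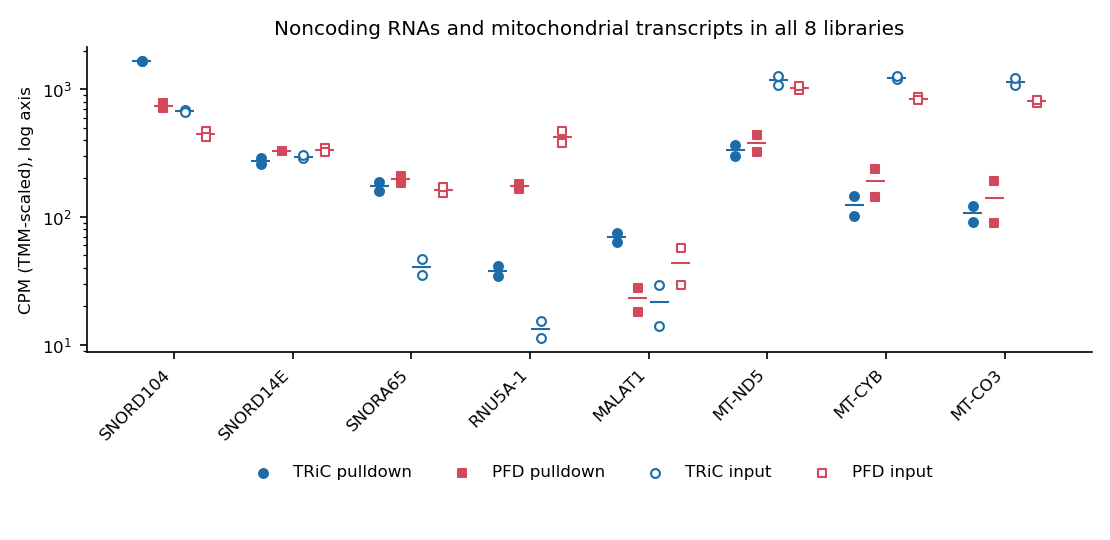
TMM-scaled CPM (log axis) of 5 noncoding RNAs and 3 mitochondrially encoded genes in all 8 libraries, with pulldowns as filled and inputs as open symbols and short lines at the group means. RNU5A-1 and SNORA65 are far lower in the TRiC inputs than in the PFD inputs, and closer together in the pulldowns. The 3 mitochondrial transcripts are lower in both pulldowns than in both inputs.

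The largest differences of all were those of genes at or near 0 counts in either pulldown. LRRC17, a secreted leucine-rich repeat protein, had 64.8 and 71.2 CPM in the TRiC pulldowns and 0 counts in both PFD pulldowns, at least 318-fold higher at a floor of 3 counts per library. The transcription factor FOXS1 had 43.5 and 37.2 CPM against 0 counts, at least 189-fold higher. On the other side PAGE2B, a cancer-testis gene, had 0 counts in both TRiC pulldowns and 58.5 and 58.1 CPM in the PFD pulldowns, at least 561-fold higher. ANXA3, an annexin, had 2 and 0 against 906 and 2172 counts, and LCP1, the actin bundler L-plastin, had 45 and 41 against 1437 and 3472 counts (-6.56 ± 0.22, adjusted p = 0.0050, edgeR). The stem cell factor SOX2, a marker used here for other cell types, had 692 and 477 counts against 1 and 0, while the basal keratin KRT14 had 7 and 10 against 270 and 278. Of 17 markers of other cell types 6 passed the filter, 2 were higher with TRiC and 1 with PFD.

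Some called genes with a mean of at least 100 counts had inputs that differed by less than 0.5 log2 units. On the TRiC side the largest were CSNK1G1, a casein kinase, with 12.3 and 14.4 against 1.80 and 1.42 CPM (3.06 ± 0.64, adjusted p = 0.042, edgeR), the syntaxin STX2 with 16.3 and 21.6 against 3.81 and 5.14 CPM (2.07, adjusted p = 0.042) and MARF1, a regulator of RNA in meiosis, with 46.4 and 43.9 against 8.79 and 12.5 CPM (2.07 ± 0.28, adjusted p = 0.021). On the PFD side they were TMCO4, a predicted membrane protein, with 7.63 and 7.90 against 23.8 and 25.1 CPM (-1.66, adjusted p = 0.042), the ribosomal protein gene RPS15 with 22.6 and 21.3 against 70.9 and 65.7 CPM (-1.64 ± 0.17, adjusted p = 0.013) and the calcium sensor HPCAL1 with 14.3 and 13.8 against 54.7 and 32.3 CPM (-1.62, adjusted p = 0.042). In each of them the pulldown groups did not overlap. The input differences were -0.03 ± 0.53 (SE) for CSNK1G1, 0.32 ± 0.24 for STX2, 0.20 ± 0.26 for MARF1, -0.23 ± 0.31 for TMCO4, -0.27 ± 0.15 for RPS15 and -0.32 ± 0.15 for HPCAL1, so for CSNK1G1 the error alone is wider than the limit of 0.5. None of these 6 was called when the pulldown difference was tested against the input difference.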

How the data were processed

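Ribosome-protected fragments were sequenced from inputs and anti-HaloTag pulldowns of 2 U-2 OS lines. The authors trimmed and demultiplexed reads, collapsed them with UMI-tools, discarded matches to non-coding RNA with Bowtie2 2.4.2 and aligned what remained with STAR 2.7.10a (genome hg38, at most 2 mismatches, unique hits). The deposited counts are the authors' raw gene counts. Annotation release and strand setting were not given in the sources used here. Names, lengths and sequences came from GENCODE release 44, which matched 60463 of 60664 identifiers.

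The 4 pulldowns were fitted with edgeR 4.0.16 in R 4.3.3 (TMM, filterByExpr, quasi-likelihood test, Benjamini-Hochberg adjustment, adjusted p under 0.05). The pipeline was tested on simulated data. The simulation gave the libraries of both baits the same spread, so it cannot show how the test behaves under the unequal spread found here. The labels call the 2 samples of a group biological replicates, and the inputs were fitted likewise. Alternatives used limma 3.58.1, DESeq2 1.42.0, other filters and scalings, and leaving out libraries. Members and gene lists were chosen with earlier results of these data known. Named genes were all actin, tubulin, TRiC and prefoldin genes, the largest called differences, each list's 3 highest members and largest called members, and the largest called genes with flat inputs. The largest differences of all genes and those with flat inputs were taken at a mean of at least 100 counts. SNORD14E, SNORA65, MALAT1, SOX2, KRT14 and any other named gene outside this rule were chosen after their values were seen. Counting intervals and floors of 3 counts cover counting error only. Some genes and sequences are not reported here.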

Additional observations from a re-analysis of the deposited data

Results flagged for a closer look

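For 7 genes the difference between the pulldowns departed from the difference between the inputs of the same lines in the fit of all 8 libraries (edgeR, pulldown difference minus input difference, log2). The cause was not tested.

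Of these, 4 shifted towards the TRiC pulldown. SRSF2, a splicing factor, had 1568 and 1363 counts in TRiC pulldowns and 318 and 1419 in PFD pulldowns, but 884 and 973 in TRiC inputs and 9820 and 5389 in PFD inputs (4.26, adjusted p = 0.0031). TPM4, a tropomyosin, had 1116 and 1040 against 349 and 1066 counts in the pulldowns and 848 and 1009 against 2823 and 1304 in the inputs (2.10, adjusted p = 0.037). GABARAP, a protein of autophagosomes, had 19 and 13 counts in the TRiC pulldowns and 0 in both PFD pulldowns, against 22 and 17 in TRiC inputs and 729 and 498 in PFD inputs (12.65, adjusted p = 0.017). That fitted value depends on the handling of zero counts and is no bound. The U5 gene RNU5A-1 differed by -2.20 between the pulldowns and by -4.99 between the inputs (2.80, adjusted p = 0.017).

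The other 3 shifted towards the PFD pulldown, each low in the PFD inputs alone. ATP6V0E2, a subunit of the vacuolar proton pump, had 117888 and 135737 counts with TRiC, 43613 and 35359 with PFD, 404193 and 155392 in the TRiC inputs and 98 and 39 in the PFD inputs (-10.45, adjusted p = 0.031). TOR3A, a torsin ATPase, had 4645 and 3254 counts with TRiC, 6281 and 7914 with PFD, 18538 and 17546 in the TRiC inputs and 333 and 153 in the PFD inputs (-7.07, adjusted p = 0.0048). The origin of the reads of ATP6V0E2 and TOR3A is in doubt and was not tested. MYOCOS had 149 and 123 against 185 and 567 counts in the pulldowns, 219 and 174 in the TRiC inputs and 0 in both PFD inputs (-12.39, adjusted p = 0.031), and its fitted value is likewise no bound.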

How the results depend on the processing

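The counts of 2453 and 1540 genes higher in the TRiC and PFD pulldowns depended on the processing. They were 4283 and 2839 with DESeq2 and 207 and 358 when tested against a 1.5-fold change. The TRiC-side count was 1018 under cyclic loess scaling with limma-trend (called loess below, a change of scaling and test together), 1289 and 1286 with at least 10 or 100 counts in each library and 1429 after thinning to the smallest total, and the PFD-side count was 847 without genes under opposite-strand exons. Leaving out a library gave 427 to 7093 TRiC-side and 701 to 4924 PFD-side genes. With the replicate number as a block there were 1637 and 1788 calls, of which 940 and 1468 were shared with the fit without it. The numbers were not shown to pair the samples, since the replicate gaps of the baits correlated at 0.044 across 11376 genes. Requiring 100 counts moved the median of all genes by 0.16.

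The 4 genes that shifted towards TRiC relative to the inputs became 2 under loess, 481 with DESeq2, 213 with no filter, 9 and 10 with at least 10 or 100 counts, and 1 without opposite-strand genes, and 0 to 2489 when a library was left out. The 3 that shifted towards PFD became 536, 298, 5 and 1 with DESeq2, no filter, at least 10 counts and no opposite-strand genes, and 0 to 1442 when a library was left out.

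Directions turned as follows. The R2TP median was 0.068 with no filter and -0.23 to 0.038 without a library. The solute carrier median was -0.015 under loess and -0.10 with at least 100 counts, and the snRNA median -0.71 under loess and -0.080 with at least 10 counts. Over the alternatives other list medians also took both signs. They ranged from -0.22 to 0.58 for laminins and integrins, -0.32 to 0.14 for secreted glycoproteins and -0.19 to 0.098 for other TRiC clients. The ranges were -0.036 to 0.37 for glycolysis genes, -0.022 to 0.18 for ATF4 targets and -0.087 to 0.31 for U-2 OS markers. Prefoldin subunits lay between -0.62 and 1.01, and tubulins and C/D box snoRNAs are given above. None of the single genes that turned had been called. Under loess MT-ND5 was 0.085, HSPA5 0.35, VIM 0.31 and SNORA65 0.014. HSPA5 was 0.0033 with library totals, 0.016 with at least 10 and 0.093 with at least 100 counts, and VIM 0.045 with at least 100 counts. SPARC was -0.0073 among protein-coding genes, -0.022 with voom and -0.0033 after thinning. Without a library MT-ND5 ranged from -0.38 to 0.055, MT-CO3 from -0.84 to 0.26, SPARC from -0.10 to 0.16, HSPA5 from -0.19 to 0.096 and VIM from -0.23 to 0.046. Of the named genes, 62 lost their call against a 1.5-fold change, 19 under loess, 4 with the block, and 32 or 34 without TRiC replicate 1 or 2. The sparse PFD libraries limit what low genes can show: 1332 TRiC-side calls rest on 0 counts in both. The values for coding length and for pulldown minus input medians were added after seeing the data.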

Other observations

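DICER1, which cuts microRNA precursors, was chosen after its values were seen. It had 2968544 and 2717455 counts in TRiC pulldowns, 219908 and 34741 in the PFD pulldowns, 2045420 and 1146143 in the TRiC inputs and 718 and 289 in the PFD inputs. It was not called between the pulldowns (log2 difference 2.996, adjusted p = 0.18, edgeR). Like ATP6V0E2 and TOR3A it was high in the TRiC inputs and in the PFD pulldowns and low in the PFD inputs. The origin of the reads of these 3 genes was not tested, and their values carry that doubt.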
